A study of Homo sapiens with 24 samples.

Results

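Nucleotide excision repair genes are described here by 10 listed members of the pathway: XPC, RAD23B, DDB2, ERCC8, ERCC6, ERCC2, ERCC3, XPA, ERCC1 and ERCC5. Their probes were found by gene symbol in the array's probe-gene table. These 10 genes have 16 of the 47231 probes, and 9 of them were among the 10146 genes bright enough to test. Total RNA came from 2 human diffuse large B cell lymphoma lines, U2932 of the activated B cell-like kind and OCI-Ly7 of the germinal centre B cell-like kind. Each line had been exposed in culture to trabectedin or to its solvent DMSO for 8 h or 24 h, and the 8 groups of line, treatment and time had 3 arrays each. The dose of the drug and the origin of the replicates, as separate cultures or not, are not stated in the labels, so p-values measure only the spread between these arrays, which may be technical.

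Nucleotide excision repair removes bulky lesions from DNA. XPC with RAD23B, helped by DDB2, finds lesions anywhere in the genome, whereas ERCC8 (CSA) and ERCC6 (CSB) act where a lesion has stalled RNA polymerase II; both routes pass the site to TFIIH, whose helicases ERCC3 (XPB) and ERCC2 (XPD) open the strands, to XPA, and to the nucleases ERCC1-XPF and ERCC5 (XPG). Trabectedin binds guanine in the minor groove of DNA, and its toxicity is known to depend on the transcription-coupled route: cells without a working ERCC5 tolerate more of it, the opposite of what is seen with most drugs that damage DNA.

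The arrays differed in brightness with line and treatment, and these values bear on every result. Mean intensity per array over all probes was lower after trabectedin than in DMSO in U2932 at 8 h (group means 460 against 539), in U2932 at 24 h (365 against 543) and in OCI-Ly7 at 24 h (235 against 366), but not in OCI-Ly7 at 8 h (365 against 326). Between 8510 and 12095 probes were detected per array. Replicates of a group correlated at 0.973 to 0.998 over the genes tested. All U2932 arrays lay on 1 slide and those of OCI-Ly7 on 2 others, of which 1 held the 3 trabectedin 24 h arrays alone, so for the OCI-Ly7 24 h effect slide and treatment cannot be told apart. Of the B cell markers, MS4A1, CD79A and CD79B were detected in every group, and PAX5 was not detected on all 3 arrays of any group. The summed intensity of the B cell markers was 10809 to 10973 and 6208 to 7194 in U2932 after 8 h and 24 h of trabectedin against 16055 to 17179 and 16349 to 17727 in DMSO, and 9172 to 15348 and 3328 to 5636 in OCI-Ly7 against 10018 to 13333 and 6685 to 16388. None of 5 T cell markers was detected in any group, and of 5 stromal markers DCN was detected in U2932 trabectedin 8 h and U2932 DMSO 24 h. The summed intensity of the 5 myeloid markers was 1299 to 1504 and 1632 to 1906 in U2932 after 8 h and 24 h of trabectedin against 633 to 664 and 648 to 662 in DMSO, and 609 to 805 and 566 to 657 in OCI-Ly7 against 485 to 511 and 439 to 591. Of these markers CD14 was detected in every U2932 group and in both OCI-Ly7 trabectedin groups, FCER1G in U2932 trabectedin 8 h, and LYZ, CSF1R and ITGAM in no group; their part in the results was not tested. Levels are relative to the other genes of an array, so fewer cells and less RNA per cell cannot be told apart.

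Under trabectedin, XPC, ERCC2 and ERCC5 were called higher and RAD23B and ERCC8 lower in each of the 4 comparisons of drug with solvent, after quantile normalisation of the arrays. The lower calls were also made when arrays were scaled to a common median or left unscaled. Of the higher calls, those of XPC and ERCC2 in OCI-Ly7 at 8 h were made under both of these scalings, those of ERCC2 in U2932 at 8 h and OCI-Ly7 at 24 h under the first alone, and the others under neither. A gene was called where limma's adjusted p, by Benjamini-Hochberg over all 10146 genes, was under 0.05. In U2932, 7 of 9 members were called at 8 h against 76.9% of all genes, 4 of them higher (37.3% of all genes) and 3 lower (39.7%). At 24 h 9 of 9 were called against 84.2% of all genes, 4 higher (38.1%) and 5 lower (46.1%). In OCI-Ly7, 6 of 9 were called at 8 h against 59.3% of all genes, 4 higher (28.7%) and 2 lower (30.7%), and 6 of 9 at 24 h against 45.9%, 3 higher (22.3%) and 3 lower (23.6%). Most genes tested changed in 3 of these comparisons, and the members' counts were read against those shares. The median log2 change of the 9 members was 0.20, -0.32, 0.32 and -0.01 in the order U2932 8 h, U2932 24 h, OCI-Ly7 8 h and OCI-Ly7 24 h, beside -0.00, -0.10, 0.00 and 0.01 for all genes. Being called higher in all 4 comparisons was shared by 10.5% of all genes, and being called lower in all 4 by 14.4%. No array is shared between these 4 comparisons.

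**Figure D1:**
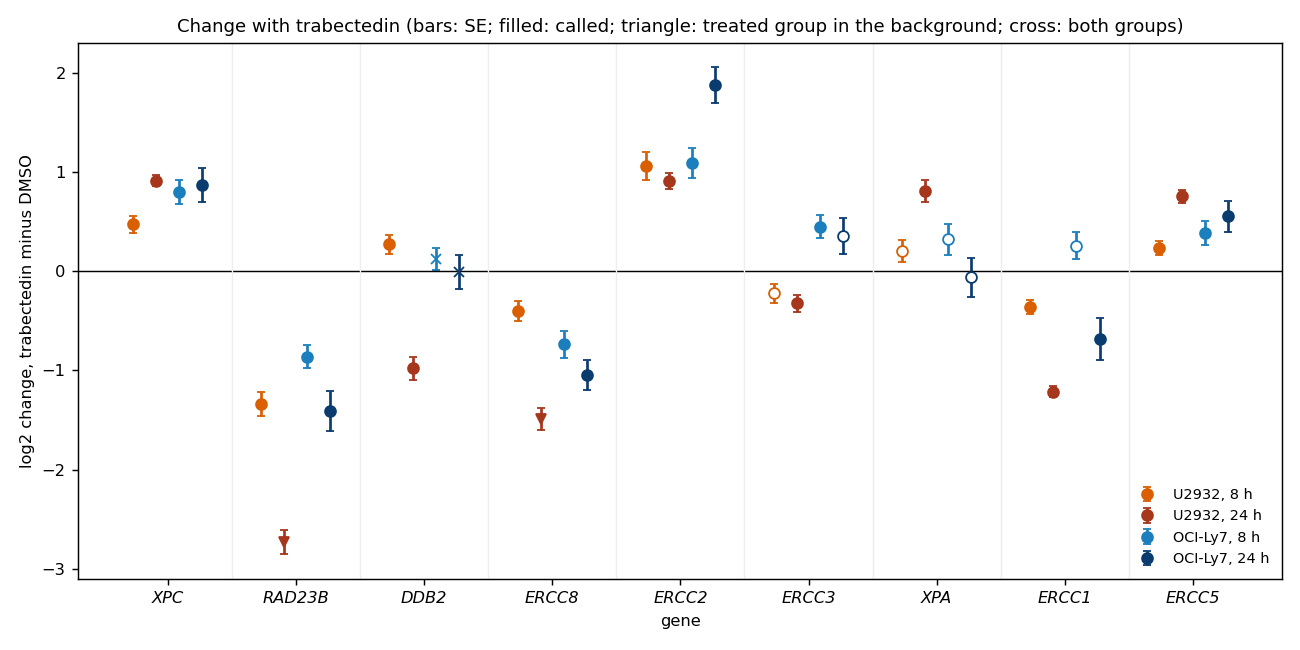
Log2 change with trabectedin against DMSO (y axis) for the 9 members tested (x axis), in 4 colours for line and time; points are differences of the means of 3 against 3 arrays after quantile normalisation, bars are standard errors, filled points passed the adjusted p of 0.05, triangles mark a treated group in the background and crosses both groups. RAD23B and ERCC8 lie below 0 in all 4 comparisons and XPC, ERCC2 and ERCC5 above 0. No scaling put XPC and ERCC5 in U2932 and in OCI-Ly7 at 24 h, and ERCC2 in U2932 at 24 h, below 0. Median scaling did the same except for XPC at 24 h in both lines.

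The scaling of the arrays sets the zero of these changes. Quantile normalisation puts the median of all genes near 0, while scaling each array to a common median of all probes shifted the median change of the genes tested to -0.45, -0.94, 0.05 and -0.43 in the same order, and no scaling to -0.60, -1.34, -0.01 and -0.93. Relative to the median of all genes, ERCC2 and XPC lay above it and RAD23B and ERCC8 below it in all 4 comparisons under all 3 scalings. In U2932 at 24 h the same 4 members, XPC, ERCC2, XPA and ERCC5, lay above and the same 5 below the median under all 3 scalings. At 8 h in U2932, ERCC5, XPA and DDB2 lay above it after quantile normalisation and below it under the other scalings, ERCC5 by only -0.01. Called higher and lower were 1 and 7 members in U2932 at 8 h, 0 and 8 at 24 h, 2 and 2 in OCI-Ly7 at 8 h, and 1 and 3 at 24 h under median scaling, and 0 and 7, 0 and 9, 2 and 2, and 0 and 3 without scaling. Of all genes, 1668 were called higher and 5784 lower in U2932 at 8 h, 1648 and 6902 at 24 h, 2491 and 2359 in OCI-Ly7 at 8 h, and 302 and 2978 at 24 h under median scaling. For no scaling the median of all genes stood at -0.60 and -1.34 in U2932. The members' counts without scaling are therefore not read as a result about them.

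**Figure D2:**
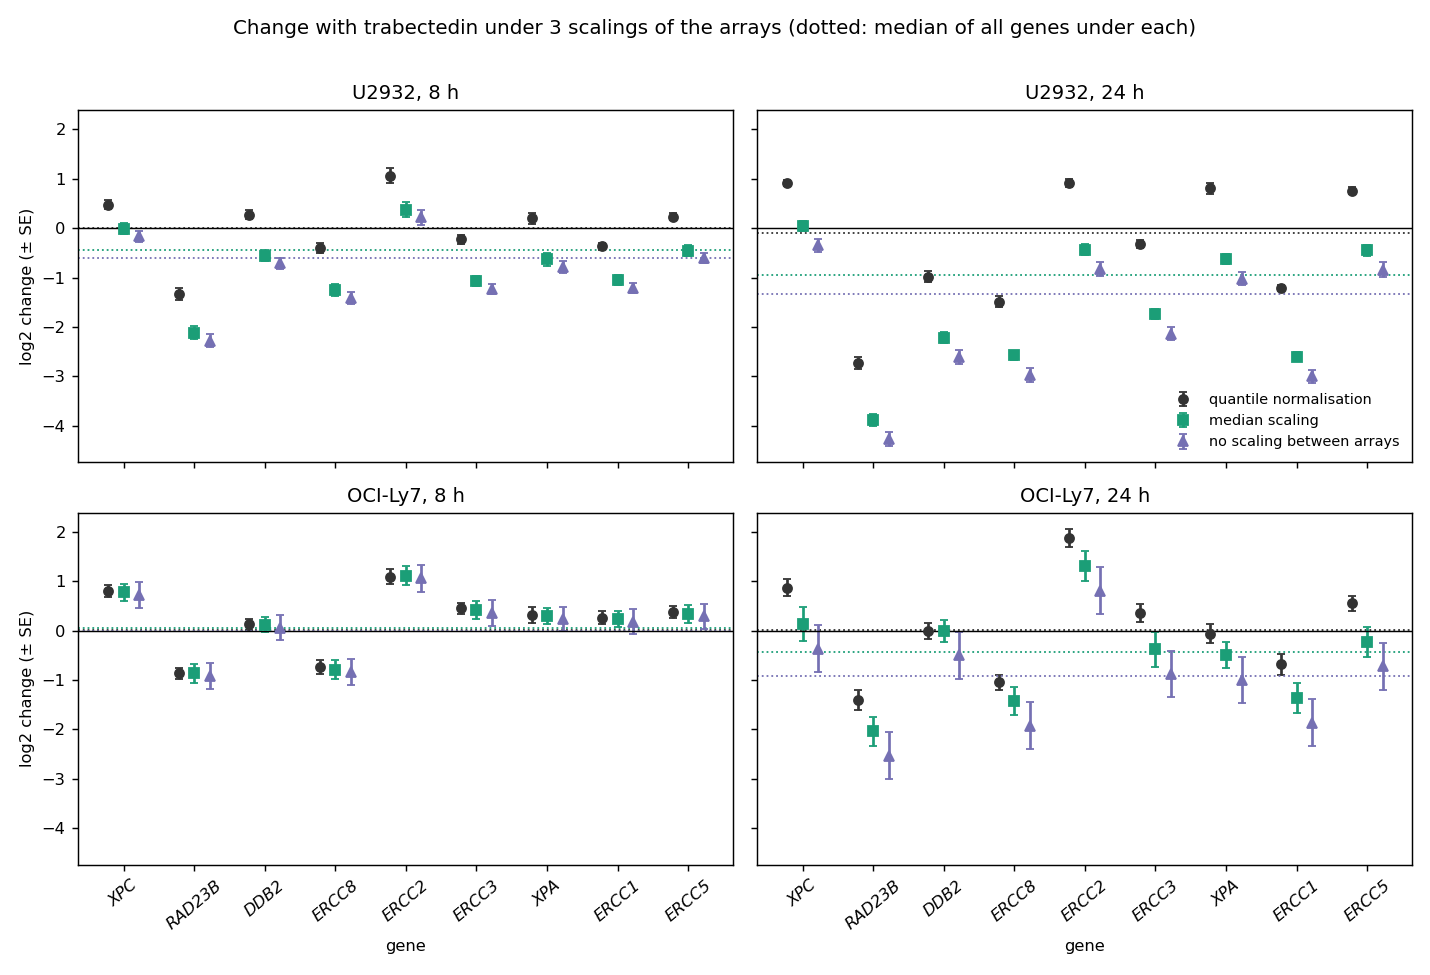
Log2 change with trabectedin (y axis, points ± SE of 3 against 3 arrays) of the 9 members (x axis) under quantile normalisation (circles), scaling to a common median (squares) and no scaling between arrays (triangles), in 1 panel per line and time; dotted lines are the median of all genes under each. In U2932 at 24 h all 9 members lie below 0 without scaling, yet XPC, ERCC2, XPA and ERCC5 stay above the dotted line at -1.34.

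Shown here are the promoters of the 5 members called in 1 direction in all 4 comparisons after quantile normalisation. RAD23B and ERCC8 were called lower, and XPC, ERCC2 and ERCC5 higher. Each window is the 250 bases before the start of the gene in RefSeq (GRCh38.p14), on the gene's strand, 5′ to 3′, from chr9:107283029-107283278 (plus strand) for RAD23B, chr5:60945071-60945320 (minus) for ERCC8, chr3:14178602-14178851 (minus) for XPC, chr19:45370574-45370823 (minus) for ERCC2 and chr13:102845782-102846031 (plus) for ERCC5. Capitals mark matches, read on both strands, of CCAAT (the core letters of NF-Y sites), of GGGCGG (Sp1) and of CCGGAAG (ETS factors); in RAD23B neighbouring matches run together.
RAD23B: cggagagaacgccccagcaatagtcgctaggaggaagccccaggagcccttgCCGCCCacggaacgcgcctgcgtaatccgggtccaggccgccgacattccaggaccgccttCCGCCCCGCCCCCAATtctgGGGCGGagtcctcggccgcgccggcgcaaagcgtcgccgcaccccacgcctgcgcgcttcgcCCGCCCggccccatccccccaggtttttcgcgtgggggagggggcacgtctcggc
ERCC8: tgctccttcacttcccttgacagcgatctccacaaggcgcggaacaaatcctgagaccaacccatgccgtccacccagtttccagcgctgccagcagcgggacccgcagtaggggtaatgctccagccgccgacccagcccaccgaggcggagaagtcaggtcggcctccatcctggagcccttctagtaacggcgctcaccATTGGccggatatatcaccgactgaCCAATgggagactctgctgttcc
XPC: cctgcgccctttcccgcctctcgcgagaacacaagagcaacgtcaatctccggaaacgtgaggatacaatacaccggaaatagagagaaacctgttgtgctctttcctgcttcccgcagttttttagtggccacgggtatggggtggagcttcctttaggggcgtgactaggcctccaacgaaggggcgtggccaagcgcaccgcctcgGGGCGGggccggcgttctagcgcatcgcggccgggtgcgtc
ERCC2: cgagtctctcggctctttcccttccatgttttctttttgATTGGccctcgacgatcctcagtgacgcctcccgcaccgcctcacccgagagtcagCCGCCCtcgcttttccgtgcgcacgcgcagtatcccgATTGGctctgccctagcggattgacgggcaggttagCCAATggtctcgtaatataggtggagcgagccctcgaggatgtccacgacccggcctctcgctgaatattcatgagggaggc
ERCC5: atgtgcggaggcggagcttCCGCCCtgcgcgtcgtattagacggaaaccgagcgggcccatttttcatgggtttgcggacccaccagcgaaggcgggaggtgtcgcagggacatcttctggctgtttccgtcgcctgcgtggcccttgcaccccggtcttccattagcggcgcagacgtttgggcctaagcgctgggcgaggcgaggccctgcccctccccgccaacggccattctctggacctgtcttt
The RAD23B window holds 5 matches of GGGCGG and 1 of CCAAT, and the ERCC8 window 2 of CCAAT. Of the members that lay higher, XPC and ERCC5 hold 1 GGGCGG each, and ERCC2 holds 3 CCAAT and 1 GGGCGG. None of the 5 holds CCGGAAG. Among 27305 promoter windows of the same length, 33% hold CCAAT, 42.2% hold GGGCGG and 8.78% hold CCGGAAG, and CCAAT and GGGCGG each stood before members called higher and before members called lower. The GC content was 73.2% for RAD23B, 61.2% for ERCC8, 61.2% for XPC, 59.6% for ERCC2 and 64.8% for ERCC5, against a median of 57.6% over all windows. All 10 members had a window in the RefSeq table.

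RAD23B, the partner that stabilises XPC, had the lowest change of the 9 members in U2932 at 8 h and in both OCI-Ly7 comparisons under all 3 scalings, while in U2932 at 24 h both RAD23B and ERCC8 give only bounds and were not ranked. In U2932 its level (normalised log2 intensity) at 8 h was 8.99, 8.81 and 8.52 in DMSO and 7.36, 7.34 and 7.60 after trabectedin. By 24 h it was 8.59, 8.59 and 8.91 in DMSO and 5.85, 5.88 and 6.17 after the drug, where none of the 3 arrays was above background. The groups did not overlap at either time. The log2 change was -1.34 (SE 0.12, adjusted p = 5.081e-06) at 8 h and -2.73 (SE 0.12, adjusted p = 3.973e-07) at 24 h, and since the treated arrays give only a bound, the level at 24 h was at least 5.98-fold lower. In OCI-Ly7 the levels were 8.47, 8.33 and 8.46 in DMSO against 7.61, 7.49 and 7.57 with trabectedin at 8 h. After 24 h they were 8.60, 9.03 and 8.66 against 7.16, 7.17 and 7.71. Again no treated array reached a DMSO array. The changes were -0.86 (SE 0.11, adjusted p = 9.866e-05) and -1.41 (SE 0.20, adjusted p = 0.0006271). Of all genes, 11.8%, 14.4% and 5.28% had a lower change than RAD23B in U2932 at 8 h and in OCI-Ly7 at 8 h and 24 h. Under median scaling the 4 changes were -2.12, -3.88, -0.86 and -2.04, and each was called.

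XPC, which binds the distorted strand opposite a lesion and starts global repair, was called the other way from its partner after quantile normalisation. U2932 showed XPC levels of 9.42, 9.35 and 9.19 in DMSO and 9.85, 9.68 and 9.84 with trabectedin at 8 h. At 24 h they were 9.02, 9.09 and 9.04 against 9.92, 9.99 and 9.99. In OCI-Ly7 they were 8.35, 8.30 and 8.57 against 9.13, 9.27 and 9.20 at 8 h. The 24 h arrays of OCI-Ly7 gave 8.56, 8.96 and 8.80 against 9.61, 9.80 and 9.52, so every treated array lay above every DMSO array of its line and time. The log2 changes were 0.47 (SE 0.09, adjusted p = 0.0007297), 0.92 (SE 0.06, adjusted p = 2.805e-06), 0.80 (SE 0.12, adjusted p = 0.0002586) and 0.87 (SE 0.17, adjusted p = 0.002871) in the order used above. The change in U2932 was relative to other genes: under median scaling it was -0.0075 at 8 h and 0.05 at 24 h, and without scaling -0.16 and -0.35, whereas the OCI-Ly7 8 h change stayed at 0.77 and 0.72 and was called under both. In OCI-Ly7 at 24 h it was 0.14 under median scaling and -0.36 without scaling, neither called.

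DDB2, which together with DDB1 recognises lesions in chromatin and is a known p53 target, was measured in U2932 only. Its probe was detected on 11 of 12 U2932 arrays and on 0 of 12 OCI-Ly7 arrays, where its level of 4.89 to 5.38 was background. Levels in U2932 were 6.79, 6.82 and 6.83 in DMSO against 7.26, 7.10 and 6.91 at 8 h, and 7.07, 7.03 and 7.03 against 6.03, 5.84 and 6.32 at 24 h. The groups did not overlap at either time, but the directions were opposite. The log2 change was 0.27 (SE 0.09, adjusted p = 0.02294) at 8 h, which turned to -0.55 under median scaling and -0.71 without scaling, and -0.98 (SE 0.12, adjusted p = 0.0001151) at 24 h, which stayed lower under both (-2.21 and -2.61). The 8 h call was lost in 3 of the 6 fits that left out 1 array.

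**Figure D3:**
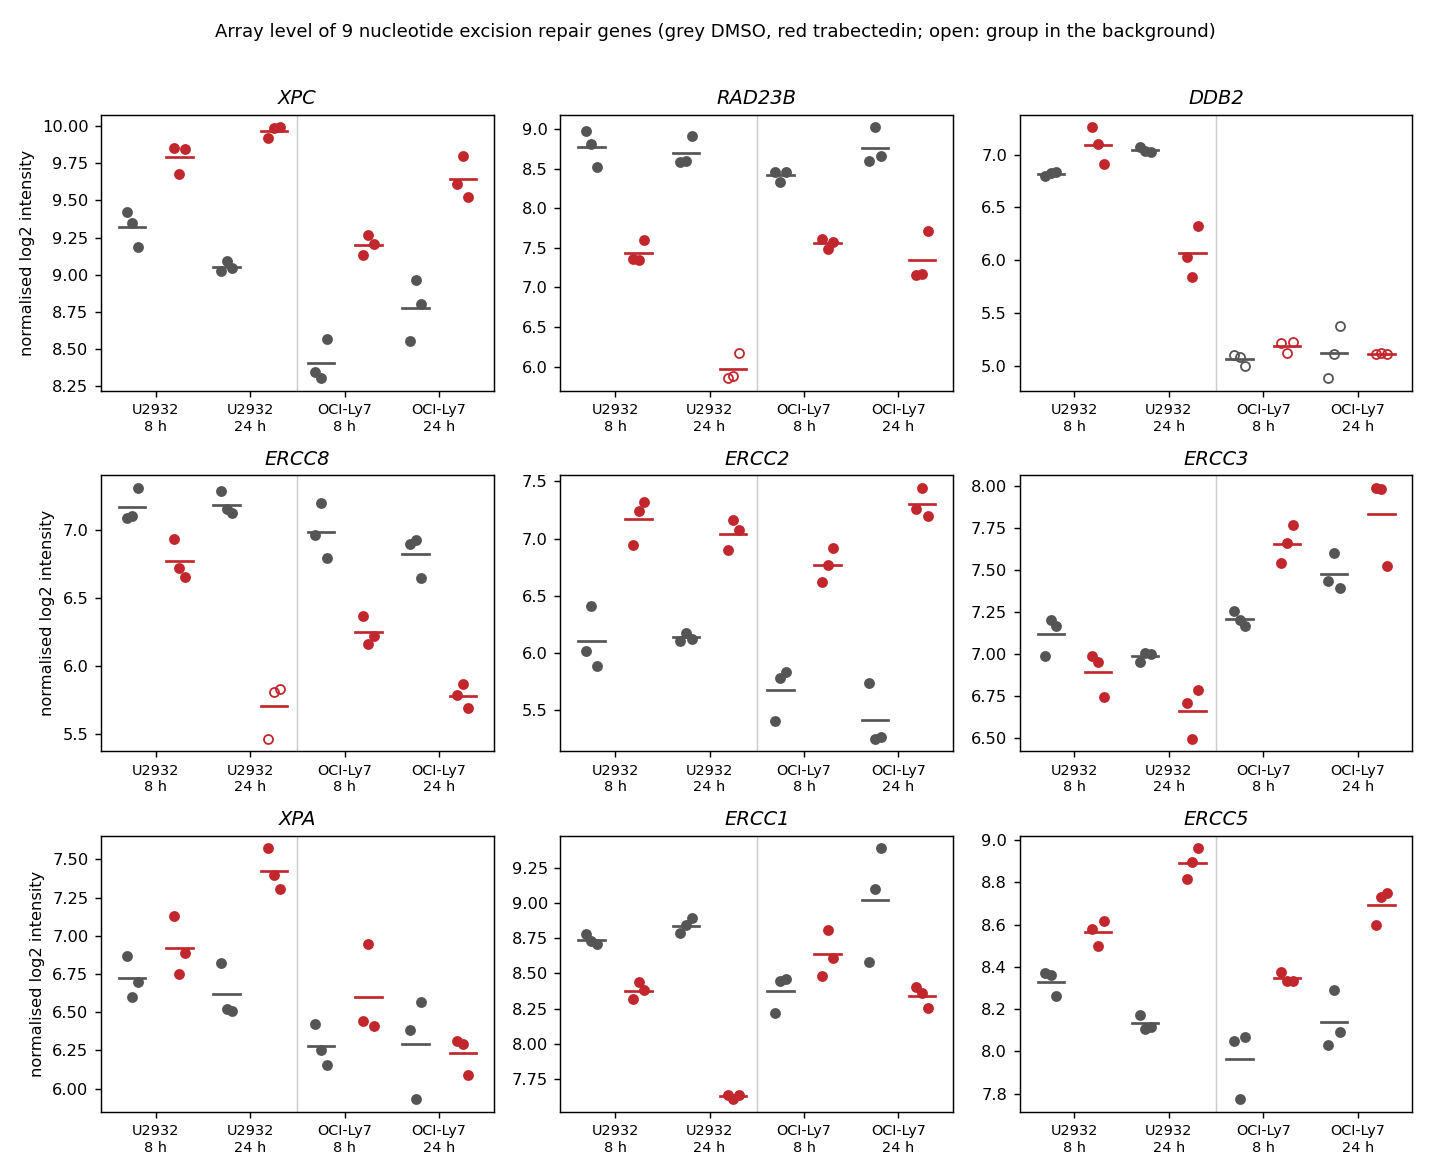
Normalised log2 intensity (y axis, own range in each panel) of the 9 members tested, for each array (points) with the mean of the 3 arrays (lines), by line and time (x axis), in DMSO (grey) and trabectedin (red); open points mark groups in which no array was above background. RAD23B in U2932 after 24 h of trabectedin, at 5.85 to 6.17, ERCC8 in the same group, at 5.46 to 5.83, and DDB2 in OCI-Ly7, at 4.89 to 5.38, lie in the background.

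ERCC8 and ERCC6 recruit the repair machinery to stalled RNA polymerase II, ERCC8 as the substrate receptor of a ubiquitin ligase and ERCC6 as the remodeller that first meets the polymerase. ERCC8 fell in both lines. At 8 h its level in U2932 was 7.09, 7.11 and 7.31 in DMSO and 6.94, 6.72 and 6.65 with trabectedin. At 24 h it was 7.29, 7.15 and 7.13 against 5.46, 5.81 and 5.83, the treated arrays being all in the background. No treated array reached a DMSO array. OCI-Ly7 gave 6.97, 7.20 and 6.79 against 6.36, 6.16 and 6.22 at 8 h, and 6.90, 6.93 and 6.65 against 5.78, 5.87 and 5.69 at 24 h, again without overlap. The log2 changes were -0.40 (SE 0.10, adjusted p = 0.004245), -1.49 (SE 0.11, adjusted p = 7.008e-06, at least 2.10-fold lower), -0.74 (SE 0.13, adjusted p = 0.0008305) and -1.05 (SE 0.16, adjusted p = 0.0007062). Under median scaling they were -1.25, -2.57, -0.79 and -1.42 and without scaling -1.41, -2.97, -0.84 and -1.92, and all were called. A second probe of ERCC8 had changes of -0.31 (SE 0.13, adjusted p = 0.05584), -1.99 (SE 0.08, adjusted p = 2.978e-07, at least 1.77-fold lower), -0.70 (SE 0.16, adjusted p = 0.003348) and -1.31 (SE 0.18, adjusted p = 0.000418) in a fit over single probes. Its other 2 probes were detected on 0 of 24 arrays. The only probe of ERCC6 was also detected on 0 of 24 arrays, its lowest detection p being 0.021, so ERCC6 was not above background on any array at the threshold of 0.01. With a detection p under 0.05, an alternative chosen after seeing the data, ERCC6 entered the fit and was called lower in U2932, at -0.27 (adjusted p = 0.007045) and -0.38 (adjusted p = 0.001815), and not called in OCI-Ly7, at -0.27 (adjusted p = 0.1675) and -0.02 (adjusted p = 0.9232).

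ERCC2, the helicase of TFIIH that opens DNA around the lesion, had the largest rise among the 9 members in U2932 at 8 h and in OCI-Ly7 at both times. U2932 levels at 8 h ran from 5.88 to 6.41 in DMSO and from 6.94 to 7.32 with trabectedin. The 24 h levels were 6.10, 6.18 and 6.13 against 6.90, 7.16 and 7.07. Treated and DMSO arrays did not overlap. OCI-Ly7 started lower, with 5.40, 5.79 and 5.84 in DMSO at 8 h (2 of 3 arrays above background) against 6.62, 6.77 and 6.92 after the drug. In DMSO at 24 h it had 5.73, 5.25 and 5.27 (1 of 3 above background) against 7.26, 7.44 and 7.19. These gaps were wider than any spread between replicates. The log2 changes were 1.06 (SE 0.14, adjusted p = 8.184e-05), 0.91 (SE 0.08, adjusted p = 1.966e-05), 1.09 (SE 0.15, adjusted p = 0.0001164) and 1.88 (SE 0.18, adjusted p = 8.88e-05). In OCI-Ly7, 94.1% of all genes at 8 h and 98.4% at 24 h had a lower change than ERCC2. Its change in U2932 at 24 h turned to -0.44 under median scaling and -0.83 without scaling, both called lower, while the other 3 changes stayed above 0 (0.38, 1.11 and 1.30 under median scaling; 0.22, 1.06 and 0.80 without, of which only 1.06 was called).

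ERCC3, the TFIIH subunit whose ATPase drives promoter opening as well as repair, was called lower in U2932 at 24 h and higher in OCI-Ly7 at 8 h, the latter only after quantile normalisation. In U2932 its levels ran from 6.98 to 7.20 in DMSO and 6.74 to 6.99 with trabectedin at 8 h, with means of 6.98 (SD 0.0303) and 6.66 (SD 0.150) over 3 arrays each at 24 h. The first pair of groups overlapped and the second did not. OCI-Ly7 ran from 7.16 to 7.26 in DMSO and 7.54 to 7.77 with trabectedin at 8 h, without overlap, and from 7.39 to 7.60 and 7.52 to 7.99 at 24 h, with overlap. The changes were -0.22 (SE 0.09, adjusted p = 0.05334), -0.32 (SE 0.09, adjusted p = 0.008991), 0.45 (SE 0.12, adjusted p = 0.006679) and 0.36 (SE 0.18, adjusted p = 0.1316), so only those in U2932 at 24 h and OCI-Ly7 at 8 h were called. The OCI-Ly7 8 h value was 0.42 (adjusted p = 0.08924) under median scaling and 0.36 (adjusted p = 0.3224) without scaling. In OCI-Ly7 at 24 h the value turned to -0.38 under median scaling and -0.88 without scaling.

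XPA, the scaffold that checks the lesion and holds the other factors in place, was called in 1 comparison. U2932 at 24 h had 6.82, 6.52 and 6.51 in DMSO and 7.57, 7.40 and 7.31 with trabectedin, with no overlap. That change of 0.81 (SE 0.11, adjusted p = 0.0002507) turned to -0.63 under median scaling and -1.02 without scaling, both called lower, though it stayed above the median of all genes. In the other comparisons the groups overlapped and the changes were 0.20 (SE 0.11, adjusted p = 0.1255) in U2932 at 8 h, which turned to -0.62 and -0.78 with both scalings calling it lower, 0.32 (SE 0.16, adjusted p = 0.1068) in OCI-Ly7 at 8 h and -0.06 (SE 0.19, adjusted p = 0.825) in OCI-Ly7 at 24 h.

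ERCC5, which makes the incision on the 3′ side of the lesion, was called higher in all 4 comparisons after quantile normalisation, and was called in neither OCI-Ly7 comparison and lower in both U2932 comparisons under the other scalings. Its U2932 levels at 8 h were 8.37, 8.36 and 8.26 in DMSO and 8.58, 8.50 and 8.62 with trabectedin. By 24 h they were 8.17, 8.11 and 8.11 against 8.82, 8.89 and 8.96. OCI-Ly7 had 8.05, 7.77 and 8.07 against 8.37, 8.33 and 8.34 at 8 h. No groups overlapped there or in the 24 h arrays of OCI-Ly7, which gave 8.03, 8.29 and 8.09 against 8.60, 8.73 and 8.75. The changes were 0.24 (SE 0.07, adjusted p = 0.01462), 0.76 (SE 0.06, adjusted p = 1.458e-05), 0.38 (SE 0.12, adjusted p = 0.01945) and 0.55 (SE 0.15, adjusted p = 0.01564). Median scaling gave -0.45, -0.45, 0.34 and -0.23, and no scaling -0.61, -0.84, 0.29 and -0.72. Relative to the median of all genes, ERCC5 was at 0.24 in U2932 at 8 h after quantile normalisation and level with it under the other scalings. The 8 h calls were lost in 2 fits without 1 array in U2932 and in 1 fit in OCI-Ly7. RefSeq lists a read-through gene, BIVM-ERCC5, at the same place, and signal from its transcripts cannot be told apart from that of ERCC5 here.

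ERCC1, the partner that binds XPF to DNA for the incision on the 5′ side, had 3 detected probes that did not move alike. The brightest of them, used in the fit over genes, gave 8.78, 8.73 and 8.71 in DMSO and 8.32, 8.44 and 8.38 with trabectedin in U2932 at 8 h. At 24 h it gave 8.79, 8.84 and 8.89 against 7.64, 7.61 and 7.64. The groups stood clearly apart at both times. In OCI-Ly7 it gave 8.22, 8.45 and 8.46 against 8.49, 8.81 and 8.61 at 8 h, and 8.58, 9.10 and 9.39 against 8.40, 8.36 and 8.26 at 24 h. Neither pair overlapped, but the DMSO arrays at 24 h lay further from each other than the group means did. The changes were -0.36 (SE 0.07, adjusted p = 0.001038), -1.21 (SE 0.06, adjusted p = 6.346e-07), 0.26 (SE 0.13, adjusted p = 0.1138) and -0.68 (SE 0.21, adjusted p = 0.02604). The call in OCI-Ly7 at 24 h was lost in 5 of the 6 fits without 1 array, with adjusted p up to 0.09184. Under median scaling the 4 values were -1.05, -2.60, 0.23 and -1.36, in the same directions.

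**Figure D4:**
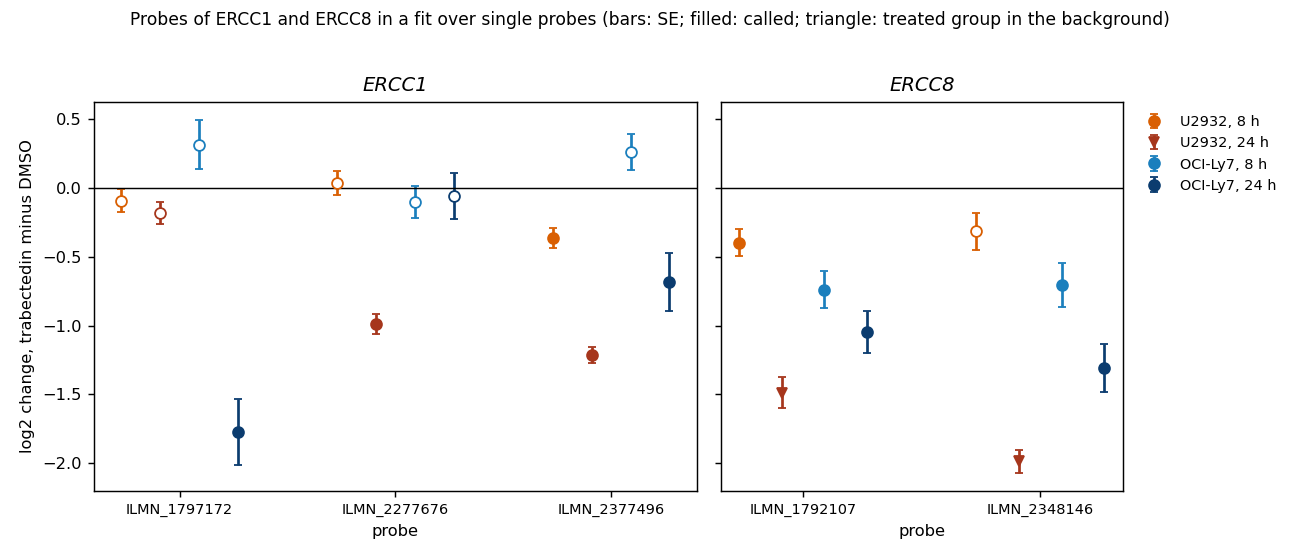
Log2 change with trabectedin (y axis) of each detected probe (x axis) of ERCC1 (left) and ERCC8 (right) in a fit over single probes, in 4 colours for line and time; bars are standard errors over 3 against 3 arrays, filled points were called and triangles mark a treated group in the background. Both ERCC8 probes lie below 0 in each comparison, whereas ERCC1 in OCI-Ly7 at 24 h ran from -0.06 to -1.77 among its 3 probes. The probe at -1.77, ILMN_1797172, was above background on only 1 of the 3 treated arrays there.

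In the fit over single probes, ERCC1 probe ILMN_2277676 had changes of 0.03, -0.99, -0.10 and -0.06, of which that in U2932 at 24 h was called (adjusted p = 7.103e-06). Probe ILMN_1797172 had -0.09, -0.18, 0.31 and -1.77, of which that in OCI-Ly7 at 24 h was called (adjusted p = 0.0004014). It was above background on only 1 of the 3 OCI-Ly7 trabectedin 24 h arrays, at a mean level of 5.46. The fall in U2932 at 24 h was thus carried by ILMN_2377496 and ILMN_2277676, and that in OCI-Ly7 at 24 h by ILMN_2377496 and ILMN_1797172. With the mean of the detected probes in place of the brightest, ERCC1 changed by -0.14 (adjusted p = 0.0774), -0.80, 0.16 and -0.84, which ended the call in U2932 at 8 h. The remaining ERCC1 probe was detected on 0 of 24 arrays. Which transcripts each probe meets was not analysed here.

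The difference between the lines in the response (the U2932 change minus the OCI-Ly7 change) was called for 3 of 9 members at 8 h, against 45.4% of all genes. ERCC3 differed by -0.67 (SE 0.15, adjusted p = 0.001755), ERCC1 by -0.62 (SE 0.15, adjusted p = 0.00337) and RAD23B by -0.48 (SE 0.17, adjusted p = 0.03155), each more negative in U2932. The ERCC1 difference was not called with the mean of its probes, nor for probes ILMN_1797172, at -0.41 (adjusted p = 0.1361), and ILMN_2277676, at 0.14 (adjusted p = 0.4649). ERCC2 differed by only -0.03 (95% interval -0.50 to 0.44) and ERCC5 by -0.15 (-0.44 to 0.14). At 24 h, 5 of 9 members were called against 58.6% of all genes, 4 of them lower in U2932 (35.9% of all genes) and 1 higher (22.8%). RAD23B differed by -1.32 (SE 0.25, adjusted p = 0.0004955), where its treated U2932 level was only a bound. ERCC2 differed by -0.97 (SE 0.20, adjusted p = 0.001016) and ERCC3 by -0.68 (SE 0.20, adjusted p = 0.009756). XPA differed by 0.87 (SE 0.23, adjusted p = 0.005366), which turned to -0.13 under median scaling and -0.02 without scaling. DDB2, also counted as lower, was in the background in OCI-Ly7 with and without the drug. Its difference of -0.97 restates its change in U2932 and is not read as a result about OCI-Ly7. XPC did not differ detectably at 24 h, at 0.05 (95% interval -0.33 to 0.42). The 24 h values include the OCI-Ly7 arrays on a slide of their own, so line and slide cannot be told apart there. The ERCC1 probes pointed in opposite directions at 24 h: the difference was 1.59 (adjusted p = 0.0002211) for ILMN_1797172 and -0.93 (adjusted p = 0.0006307) for ILMN_2277676. The former was above background on only 1 of the 3 treated OCI-Ly7 arrays.

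The change with trabectedin was also compared between the times. In U2932 the change at 24 h minus that at 8 h was called for 7 of 9 members, against 56.7% of all genes. It was -1.40 (SE 0.19, adjusted p = 5.167e-05) for RAD23B, -1.25 (SE 0.16, adjusted p = 2.832e-05) for DDB2, -1.09 (SE 0.16, adjusted p = 8.102e-05) for ERCC8 and -0.85 (SE 0.08, adjusted p = 3.612e-06) for ERCC1, all called in this direction under all 3 scalings. For RAD23B and ERCC8 the treated 24 h level was only a bound, so their values are fitted and not measured sizes. Of the other ERCC1 probes, ILMN_2277676 gave -1.02 (adjusted p = 1.019e-05) and ILMN_1797172 -0.09 (adjusted p = 0.5361). For XPA, ERCC5 and XPC it was 0.61 (SE 0.17, adjusted p = 0.008518), 0.52 (SE 0.09, adjusted p = 0.0003378) and 0.44 (SE 0.10, adjusted p = 0.003269), and under median scaling -0.00, 0.01 and 0.05, not called. ERCC2 and ERCC3 showed -0.16 (95% interval -0.56 to 0.25) and -0.10 (-0.39 to 0.19). In OCI-Ly7, where the 24 h treated arrays have their own slide, 2 of 9 members differed, against 31.3% of all genes: ERCC1 by -0.94 (SE 0.25, adjusted p = 0.01366) and ERCC2 by 0.79 (SE 0.24, adjusted p = 0.02243), the latter 0.19 under median scaling and -0.25 without scaling, neither called. Here ERCC1 probe ILMN_1797172 gave -2.09 (adjusted p = 0.0005865) and ILMN_2277676 0.04 (adjusted p = 0.8984). The former was above background on only 1 of the 3 treated arrays at 24 h.

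In DMSO alone few members were called between 8 h and 24 h. In U2932, XPC fell by 0.27 on the log2 scale (SE 0.08, adjusted p = 0.02736) and DDB2 rose by 0.23 (SE 0.07, adjusted p = 0.02913), so 2 of 9 were called against 22.8% of all genes, and 0 of 9 under median scaling, without scaling or with the spread of all 24 arrays. In OCI-Ly7, 0 of 9 were called by limma against 4.94% of all genes (2.02% higher and 2.92% lower). There 3 members had an unadjusted p under 0.05, as had 2899 of all 10146 genes: ERCC1 at 0.65, XPC at 0.37 and RAD23B at 0.34. The ERCC1 groups did not overlap, with DMSO means of 8.38 at 8 h and 9.02 at 24 h, beside 8.34 after 24 h of trabectedin. The DMSO 24 h group of OCI-Ly7 had the lowest correlation between replicates.

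Between the lines in DMSO, 7 of 9 members differed, against 70.0% of all genes, 6 of them higher in U2932 (36.4% of all genes) and 1 lower (33.6%), with line and slide not to be told apart. DDB2 is counted among the 7, but it was detected on 11 U2932 arrays and on 0 OCI-Ly7 arrays. It thus passed the filter on dim probes through U2932 alone, and its call is not read as a test. U2932 had 6.79 to 7.07 and OCI-Ly7 4.89 to 5.38, which is background. As a bound, DDB2 was at least 2.43-fold higher in U2932 at 8 h and 2.71-fold at 24 h. XPC was higher in U2932 by 0.60 (SE 0.08, adjusted p = 1.676e-05), ERCC2 by 0.57 (SE 0.12, adjusted p = 0.0004691), XPA by 0.39 (SE 0.11, adjusted p = 0.005374), ERCC8 by 0.27 (SE 0.09, adjusted p = 0.01126) and ERCC5 by 0.18 (SE 0.07, adjusted p = 0.04321). The second detected probe of ERCC8 gave 0.11 in the fit over single probes and was not called (adjusted p = 0.3813). ERCC3 was lower in U2932 by -0.29 (SE 0.07, adjusted p = 0.001437), which turned to 0.51 under median scaling and 0.61 without scaling, where the median of all genes stood at 0.72 and 0.82. RAD23B at 0.15 (95% interval -0.07 to 0.37) and ERCC1 at 0.09 (-0.15 to 0.33) were not called. In the fit over single probes, ERCC1 probe ILMN_2277676 was called lower in U2932, at -0.28 (adjusted p = 0.005754). Probe ILMN_1797172 was not called, at 0.15 (adjusted p = 0.2871).

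The lowest and highest group means over the 8 groups differed between members. XPC ran from a mean of 8.41 in OCI-Ly7 DMSO 8 h to 9.97 in U2932 trabectedin 24 h, with the trabectedin groups of each line above its DMSO groups. RAD23B ran the other way, from 5.97 in U2932 trabectedin 24 h to 8.77 in U2932 DMSO 8 h, with its 4 DMSO groups at 8.42 to 8.77, for which neither the comparisons of times nor that of the lines was called. ERCC2 ran from 5.42 in OCI-Ly7 DMSO 24 h to 7.30 in OCI-Ly7 trabectedin 24 h, and the 4 treated groups lay between 6.77 and 7.30, above all 4 DMSO groups, at 5.42 to 6.14. Over the 8 group means, which share arrays and scaling, XPC and ERCC5 had a Pearson r of 0.953, ERCC1 and RAD23B 0.899, ERCC8 and RAD23B 0.872, and RAD23B and ERCC5 -0.879. The gene of the array with the most similar pattern over the 8 means was ESS2 for XPC (r = 0.993), GNB1 for RAD23B (0.994), ACY1 for DDB2 (0.999), CTPS2 for ERCC8 (0.984), BSCL2 for ERCC2 (0.984), GALC for ERCC3 (0.983), PDAP1 for XPA (0.994), GMEB1 for ERCC1 (0.986) and PCDHB19P for ERCC5 (0.986). With 8 points and 10146 genes to choose from, such likeness is a description.

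Of the other genes of the pathway, 39 were tested, and POLK did not pass the filter on dim probes. In U2932, 9 were called higher and 18 lower at 8 h and 7 and 25 at 24 h, and in OCI-Ly7 12 and 12 at 8 h and 6 and 8 at 24 h. The 9 include ERCC4, called at 0.49 although no array of either group was above background. The 25 include GTF2H2, for which no fold could be given. The shares of all genes called higher and lower were 37.3% and 39.7%, 38.1% and 46.1%, 28.7% and 30.7%, and 22.3% and 23.6%. Their median change was -0.04, -0.70, -0.06 and -0.17, beside -0.00, -0.10, 0.00 and 0.01 for all genes. Below the median of all genes were 25, 28, 20 and 23 of the 39 after quantile normalisation, and 22, 26, 18 and 24 under either other scaling.

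MNAT1, the assembly factor of the kinase module of TFIIH, had the lowest fitted change of these genes in each comparison, though its treated level was only a bound in 3 of them, which leaves its rank unsettled in U2932 at 24 h; the changes were -3.28 (SE 0.08, adjusted p = 2.038e-09, at least 4.94-fold lower), -3.44 (SE 0.06, adjusted p = 1.369e-08, at least 3.69-fold), -2.51 (SE 0.19, adjusted p = 5.002e-06) and -2.87 (SE 0.16, adjusted p = 1.025e-05, at least 6.37-fold). It was called lower under all 3 scalings. RFC1, the large subunit of the clamp loader used in gap filling, was called lower at -2.01, -2.19 and -1.64 in U2932 at 8 h and 24 h and in OCI-Ly7 at 8 h. In OCI-Ly7 at 24 h RFC1 was at -0.22, not called, but was called lower without scaling, at -1.39. POLD4, a small subunit of DNA polymerase delta, was called lower at 24 h in both lines, at -1.02 in OCI-Ly7 and -1.29 in U2932. At 8 h POLD4 was called in neither line after quantile normalisation. XAB2, which binds XPA in transcription-coupled repair, was called higher at 0.91, 1.65, 2.26 and 1.18, the last being 0.43 under median scaling and -0.07 without scaling, neither called. ELOF1, an elongation factor that helps bring repair to stalled polymerase, was at 1.06 and 1.94 in U2932 and stayed higher there under all 3 scalings. In OCI-Ly7 it was at 0.85 at 8 h, called under all 3 scalings, and at 0.36 at 24 h, called under none. POLD2, another subunit of polymerase delta, stood at 1.17 in OCI-Ly7 at 8 h and at 0.70 in U2932 at either time. Its U2932 24 h value was 0.10 under median scaling, not called, and -0.29 without scaling, called lower. In OCI-Ly7 at 24 h POLD2 was at -0.12, not called. POLE3, a subunit of polymerase epsilon, was at 0.57 and 1.14 in U2932, called higher under all 3 scalings. In OCI-Ly7 POLE3 was at 0.14 at 8 h, not called, and at 0.85 at 24 h. The latter was 0.67 under median scaling and 0.17 without scaling, neither called. Called the same way in all 4 comparisons were XAB2 and RFC5 higher, where RFC5 turned below 0 at 24 h in both lines under the other scalings, and MNAT1, GTF2H2 and RFC3 lower, beside 10.5% and 14.4% of all genes. For GTF2H2 background left only bounds, at least 1.34-fold lower in U2932 at 8 h and 1.52-fold and 1.21-fold in OCI-Ly7 at 8 h and 24 h. In U2932 at 24 h no fold could be given for it. By step, the called genes of TFIIH other than ERCC2 and ERCC3 were 1 higher and 4 lower, 1 and 6, 3 and 4, and 1 and 3 of 8. Those of gap filling were 4 and 8, 3 and 11, 5 and 5, and 3 and 2 of 17, and both are to be read against the shares of all genes given above.

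**Figure D5:**
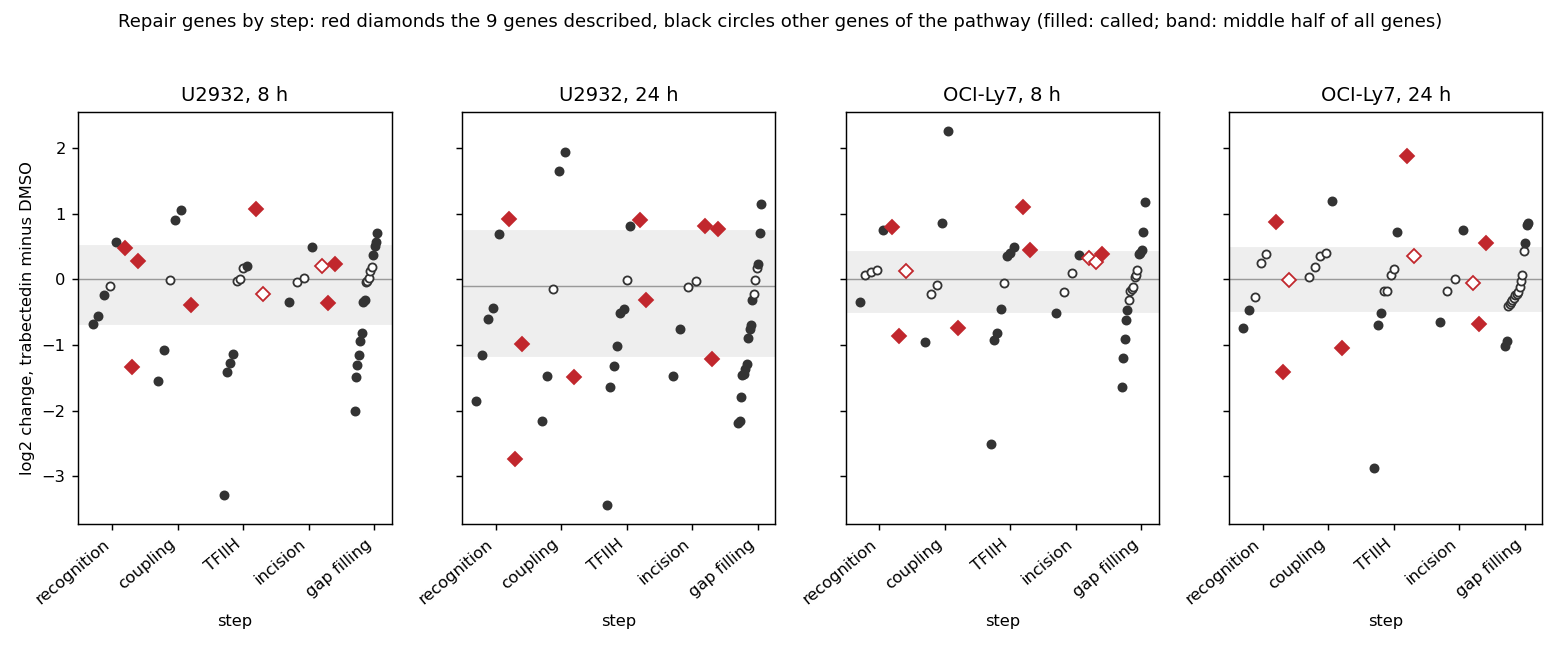
Log2 change with trabectedin (y axis) of the 9 members (red diamonds) and 39 other pathway genes (black circles) by repair step (x axis), in 1 panel per line and time, after quantile normalisation; filled symbols were called, the grey line is the median and the band the middle 50% of all genes. Genes with groups in the background are not marked. In each panel the lowest plotted point of TFIIH is MNAT1, at -3.28, -3.44, -2.51 and -2.87, and the highest member in U2932 at 8 h and in both OCI-Ly7 panels is ERCC2.

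ERCC2 and ERCC1 lie near each other on chromosome 19, with 2 genes, PPP1R13L and POLR1G, between them in RefSeq, and they were called in opposite directions in both U2932 comparisons and in OCI-Ly7 at 24 h after quantile normalisation, whereas both were lower in U2932 at 24 h under median scaling. POLR1G, next to ERCC1, had changes of 0.41 (adjusted p = 0.0007729), 1.49 (adjusted p = 8.684e-06), 0.42 (adjusted p = 0.02277) and 0.36 (adjusted p = 0.2641); under median scaling and without scaling it was called lower in U2932 at 8 h, at -0.32 and -0.47, and not called in the others. FOSB, the AP-1 gene on the other side of ERCC1, had 2.01, 3.01, 0.78 and 3.00, each called under all 3 scalings except 0.71 in OCI-Ly7 at 8 h without scaling (adjusted p = 0.05182). NDUFAF2, beside ERCC8, had -0.87, -3.28, -0.26 and -3.16, of which that in OCI-Ly7 at 8 h was not called under any of the 3 scalings. TMEM43, beside XPC, had 1.02, 1.05, 1.11 and 1.41, each called, though under median scaling and without scaling the U2932 24 h value was 0.03, not called, and -0.37, called lower, and that in OCI-Ly7 at 24 h was not called. Its neighbour LSM3 on the other side of XPC had 0.25, -0.15, 0.30 and -0.12, of which those at 8 h were called but not without scaling; at 24 h it was called lower in U2932 under both other scalings, at -0.32 and -0.71, and in OCI-Ly7 without scaling, at -1.11. NCBP1, beside XPA, had -0.78, -1.12, -0.70 and -0.75, each called except in OCI-Ly7 at 8 h without scaling (-0.65, adjusted p = 0.05257). ACP2, beside DDB2, had -1.16, -1.01, -0.67 and -0.12, of which the last was not called, though it was called lower without scaling at -1.21 (adjusted p = 0.02839). KLF4, beside RAD23B, had 0.42, -0.33, -0.34 and 0.29, of which those in U2932 were called; it was detected on 1 of the 6 U2932 arrays at either time, and the 8 h call was lost under both other scalings.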

How the data were processed

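The authors deposited probe intensity on a linear scale for 24 arrays, with no background subtraction, no scaling between arrays and no detection p-values, and a table of log2 values; the deposited log2 values differed from the quantile-normalised log2 of the deposited intensities by at most 4.99e-09. Per the labels' protocols, the RNA was made into biotin-labelled cRNA by an Ambion kit. Only the 30113 probes with 1 gene symbol were named (8 have several, 17110 none). Because the tables lack detection p-values, background was measured, by a choice made after seeing this, on 666 probes of gene families silent in B cells (olfactory, taste and vomeronasal receptors, keratin-associated proteins, late cornified envelope proteins, defensins and trace amine receptors): intensities were corrected by normexp with these as negative controls and an offset of 16, taken to log2 and quantile normalised over the 24 arrays, and a probe was detected where under 0.01 of the silent probes on its array were as bright. Probes detected on at least 3 arrays were kept (13447, for 10146 genes), with the brightest probe for each of the 2629 genes that had several; alternatives of background and scaling keep the same probe. Groups were fitted with limma 3.58.1 (lmFit and eBayes) in R 4.3.3, on the arrays of the groups compared alone, with two-sided p-values adjusted by Benjamini-Hochberg over all genes; the procedure was tested on simulated data. Where no array of a group was above background, a fold is given as a bound, against the higher of the probe's signal and the lowest detected signal on each array. Replicate numbers of the labels were checked as pairs: in none of 6 pairs of groups did every same-numbered pair correlate over 0.1 in its deviations, so they were not used. The number of arrays limits the precision. Text names all 10 members, and of the 39 other pathway genes tested the 2 highest and 2 lowest called in each drug comparison and, chosen after their values were seen, those called alike in all 4; the gene with the highest Pearson r over 8 group means is named for each member, and so are tested neighbours of members. The members and lists were chosen with earlier results of these data known. RefSeq (GRCh38.p14) gave promoters and neighbours. Figures were drawn with matplotlib 3.10.9. Alternatives tried were other backgrounds, scalings, filters, probe rules and spreads, a replicate block, and leaving out each array.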

Additional observations from a re-analysis of the deposited data

Results flagged for a closer look

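These members differed between lines or times in their response by a test of the difference itself, in limma's fit over all genes. At 8 h the change in U2932 minus that in OCI-Ly7 was -0.67 for ERCC3 (adjusted p = 0.001755), -0.62 for ERCC1 (adjusted p = 0.00337) and -0.48 for RAD23B (adjusted p = 0.03155). All 3 were called in the same direction under median scaling and without scaling, but the ERCC1 difference was not called with the mean of its probes or for either of its other probes. At 24 h the difference was -1.32 for RAD23B (adjusted p = 0.0004955), whose treated U2932 level was only a bound, and -0.97 for ERCC2 (adjusted p = 0.001016). Each was called under all 3 scalings. DDB2 was called too, at -0.97, but OCI-Ly7 was in the background, so the value restates the U2932 change. For ERCC3 the difference was -0.68 (adjusted p = 0.009756), which was -1.26 without scaling and not called there (adjusted p = 0.07492). For XPA it was 0.87 (adjusted p = 0.005366), which was -0.13 under median scaling. Line and slide cannot be told apart in the 24 h values.

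Between times, the change in U2932 at 24 h minus that at 8 h was -1.40 for RAD23B (adjusted p = 5.167e-05), -1.25 for DDB2 (adjusted p = 2.832e-05), -1.09 for ERCC8 (adjusted p = 8.102e-05) and -0.85 for ERCC1 (adjusted p = 3.612e-06), each called under all 3 scalings, while ERCC1 probe ILMN_1797172 gave -0.09 and was not called. For RAD23B and ERCC8 the treated 24 h level was only a bound. The same difference was 0.61 for XPA (adjusted p = 0.008518), 0.52 for ERCC5 (adjusted p = 0.0003378) and 0.44 for XPC (adjusted p = 0.003269), and without scaling -0.24, -0.23 and -0.18, none called. In OCI-Ly7 it was -0.94 for ERCC1 (adjusted p = 0.01366), called under all 3 scalings but not for probe ILMN_2277676, at 0.04, and 0.79 for ERCC2 (adjusted p = 0.02243), which was 0.19 under median scaling and not called. Slide and treatment cannot be told apart in these OCI-Ly7 values.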

How the results depend on the processing

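Scaling moved the results most. Over the 36 member changes with trabectedin, 22 kept direction and side of the threshold under median scaling, 4 lost and 1 gained a call and 9 turned. Without scaling, an alternative added after seeing the data, 20 kept both, 4 lost and 1 gained a call and 11 turned; in OCI-Ly7 at 24 h limma then gave 1 common standard error to the members, pathway genes and neighbours named, so calls there follow the size of the change. The turned values were, under median scaling, -0.45 for ERCC5, -0.62 for XPA, -0.0075 for XPC and -0.55 for DDB2 in U2932 at 8 h, -0.44 for ERCC2, -0.45 for ERCC5 and -0.63 for XPA in U2932 at 24 h, and -0.38 for ERCC3 and -0.23 for ERCC5 in OCI-Ly7 at 24 h. Without scaling they were -0.61, -0.78, -0.16 and -0.71 for ERCC5, XPA, XPC and DDB2 in U2932 at 8 h, -0.83, -0.84, -1.02 and -0.35 for ERCC2, ERCC5, XPA and XPC in U2932 at 24 h, and -0.88, -0.72 and -0.36 for ERCC3, ERCC5 and XPC in OCI-Ly7 at 24 h. With quantile normalisation within each line, no background correction, and the added alternatives of olfactory receptor probes alone and a detection p of 0.05, all 36 kept direction and side, and with the last ERCC6 was tested too and called lower in U2932; with no filter, an offset of 50, the mean of detected probes or the spread of 24 arrays 34 or 35 did, and with probes detected on all arrays compared 28 of 29.

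Counts of called members moved by over 1.5 times as follows. Without scaling it was 3, not 6, in OCI-Ly7 at 24 h, 8 in place of 3 for the 8 h line difference (also 8 under median scaling) and 3 in place of 5 for the 24 h line difference. With probes detected on all arrays it was 2 for the 24 h line difference, 4 in place of 7 for the time difference in U2932 and 1, not 2, in OCI-Ly7, where fewer genes were tested. In DMSO over time it was 0 in place of 2 in U2932 under median scaling, no scaling or the spread of 24 arrays, and 2 in place of 0 in OCI-Ly7 with that spread. The cause was not tested. These counts show how the calls depend on the processing and are not read as results about the members. Numbers of all genes called moved with the settings too, as given below. Without 1 array the counts ran from 6 to 8, 9 to 9, 5 to 6 and 5 to 6 for the 4 drug comparisons in the order above, 2 to 5 and 5 to 6 for the line differences, 7 to 7 and 1 to 3 for the time differences, 0 to 2 and 0 to 1 for DMSO over time, and 6 to 7 for the lines. Without 1 array the change of XPA in OCI-Ly7 at 24 h ran from -0.24 to 0.075, turning to 0.0091 without trabectedin replicate 3 and 0.075 without DMSO replicate 3, and that of DDB2, in the background, ran from -0.13 to 0.12, turning without DMSO replicate 3.

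Among all genes, calls numbered 5312 in place of 8546 in U2932 at 24 h with probes detected on all arrays, in OCI-Ly7 at 8 h 3508 against 6020 without scaling, 2878 in place of 4606 for the 8 h line difference and 3066 in place of 5949 for that at 24 h with probes detected on all arrays, the last 2943 without scaling. In DMSO over time they ran from 233 to 2316 in U2932 and from 0 to 2602 in OCI-Ly7 (501 as reported).

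The labels' replicate numbers did not pair the arrays. With the replicate block 35 of 36 member changes kept direction and side, and 1 member in place of 0 was called in DMSO over time in OCI-Ly7. Slide as a random block could not be fitted usefully, as each of the 8 groups lies on 1 slide. Signal over background limits RAD23B and ERCC8 in U2932 after 24 h, DDB2 and ERCC2 in OCI-Ly7, and ERCC6 throughout.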
